A study of Mus musculus with 6 samples.

Results

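The genes described here were 10 genes of the contractile apparatus of smooth muscle: *Acta2*, *Actg2*, *Myh11*, *Tagln*, *Cnn1*, *Lmod1*, *Smtn*, *Synpo2*, *Des* and *Myocd*. They were taken by name from the 23107 genes listed in the count table, with earlier results of these data known, and all 10 were present. RNA was sequenced from aortic valve tissue of outbred mice at 4 months of age. The 3 control libraries were labeled wild type, and the 3 mutant libraries carried *Acvr1:Nfatc1Cre*. By the study's methods, this is a transgene for a constitutively active form of *Acvr1*, a type I receptor of the BMP family, that is silent until Cre recombinase acts on it, together with a Cre knocked in at the *Nfatc1* locus. In the study's reporter mice this Cre marked endocardial cells, valve interstitial cells and cells at the junction of leaflet and aortic wall, but not myocardium or smooth muscle. The study's controls were littermates that lacked the transgene, the Cre or both, and which of these were sequenced, and whether animals were pooled, is not given in the sources used here. The study's methods speak in general of independent samples in each assay, but neither they nor the labels state that each library came from a separate animal, so the p-values measure only the spread between these libraries, which may be technical.

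Smooth muscle cells shorten when a smooth muscle isoform of myosin pulls on actin filaments that are anchored to the membrane and to dense bodies in the cytoplasm. In contrast to cardiac and skeletal muscle, the filaments are not arranged in sarcomeres, and contraction is switched on by phosphorylation of the myosin light chain. Transcription of many of these genes depends on serum response factor (SRF), which binds a short DNA element, the CArG box, and on its coactivator myocardin. In the aorta the genes mark the muscle of the wall, and several of them, *Acta2* above all, are also used as markers of activated fibroblasts and valve interstitial cells.

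The libraries held 32218345 to 55728852 fragments over the listed genes, and the 15354 genes that reached 10 counts or more in 3 or more libraries were tested. All 10 genes passed this filter. Levels are given in CPM, fragment counts scaled to a common library size, after TMM scaling for differences in the makeup of the libraries. The 9 marker genes of valve interstitial cells and fibroblasts were all among the genes tested and together took 1.24 to 1.60% of the fragments in every library, and those of cardiac muscle took 1.44 to 4.80%, so that RNA of heart muscle genes was present in every library beside that of valve genes. In such bulk tissue, fewer cells of a type and less RNA per cell cannot be told apart.

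The comparison of mutants with controls asked whether active *Acvr1* signaling in the *Nfatc1* lineage was accompanied by another level of smooth muscle transcripts in the valve. The mean was lower in the mutants for 9 of the 10 genes and higher for *Des*, with log2 fold changes of -1.12 for *Myh11* to 0.12 for *Des* and a median of -0.82, against 0.0097 over all genes tested. None of the 10 passed the edgeR quasi-likelihood test after Benjamini-Hochberg adjustment (adjusted p = 0.999 for each), and neither did any other gene (0% of those tested), while DESeq2 called 26 genes, none of these 10 among them. Before adjustment, *Smtn* (edgeR, unadjusted p = 0.0341) and *Synpo2* (edgeR, unadjusted p = 0.00796) were lower, 2 of 10 beside a background of 1.86% of genes lower and 1.59% higher at this threshold. DESeq2 gave an unadjusted p under 0.05 for 6 of the 10, all lower, beside a background of 2.29%. Every mutant lay below every control in 4 genes, *Myh11*, *Tagln*, *Smtn* and *Synpo2*, a pattern shown by 4.83% of the genes tested. For such a separation of 3 from 3 libraries the exact two-sided permutation test gives p = 0.1, the smallest value it can reach.

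**Figure D1:**
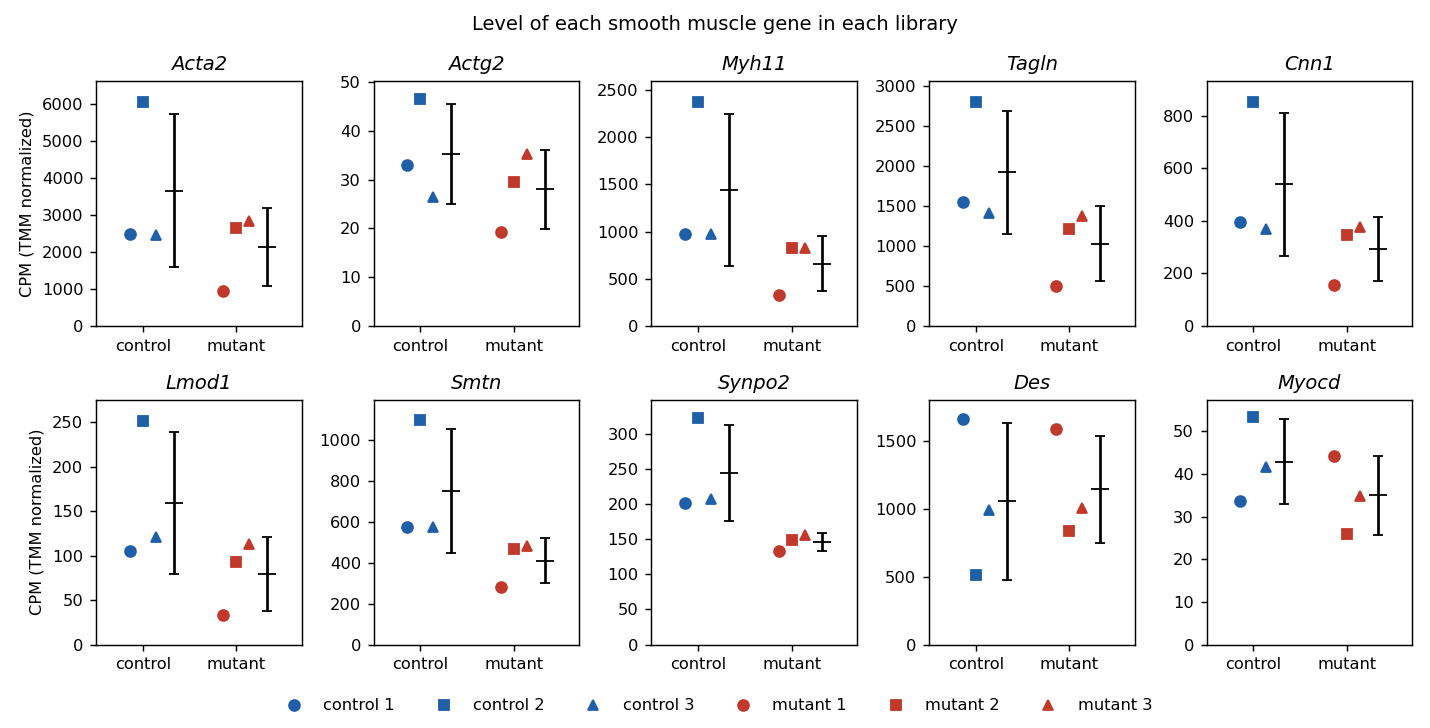
Level of each of the 10 genes (y axis, CPM after TMM scaling, from 0) in the 3 control libraries (blue) and the 3 mutant libraries (red). The marker shape gives the library number, and the bars beside the points give the mean ± SD (n = 3). Control 2 lies far above the other controls and mutant 1 far below the other mutants for most genes, and *Des* runs the other way.

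*Acta2* (chromosome 19, 34241090 to 34255590, minus strand, GRCm38) encodes smooth muscle α-actin, the main thin filament protein of vascular smooth muscle. Its level was 2482, 6057 and 2458 CPM in controls 1 to 3 and 936, 2656 and 2835 CPM in mutants 1 to 3. Controls 1 and 3 lay between mutant 1 and the other mutants, so the groups overlapped. The means were 3666 ± 2071 and 2142 ± 1048 CPM (SD, n = 3), and the log2 fold change was -0.77 ± 0.54 (SE) with a 95% interval of -2.05 to 0.50 (edgeR, unadjusted p = 0.195). With control 2 and mutant 1 both left out, an alternative chosen after the data were seen, it was 0.15.

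*Actg2* (chromosome 6, 83512905 to 83536265, minus strand) encodes the smooth muscle γ-actin of visceral organs and was present at low level. It measured 32.9, 46.5 and 26.4 CPM in the controls and 19.2, 29.4 and 35.3 CPM in the mutants. The groups overlapped, with mutants 2 and 3 inside the range of the controls. The log2 fold change was -0.34 ± 0.28 (SE; edgeR, unadjusted p = 0.269), and 0.12 without control 2 and mutant 1.

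Muscle actins are nearly identical proteins, and reads could pass from one gene to another where their DNA also matched or nearly matched. The last 60 coding bases before the stop codon, from the GENCODE vM21 transcripts, are shown to let the difference be seen between the 2 smooth muscle actins, cardiac *Actc1*, which was abundant in this tissue, and skeletal *Acta1*, with bases that differ from *Acta2* in capitals.
Acta2: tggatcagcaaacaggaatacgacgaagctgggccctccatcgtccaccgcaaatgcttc
Actg2: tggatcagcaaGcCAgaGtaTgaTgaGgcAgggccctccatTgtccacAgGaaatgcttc
Actc1: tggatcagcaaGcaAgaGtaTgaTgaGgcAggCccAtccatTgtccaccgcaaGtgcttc
Acta1: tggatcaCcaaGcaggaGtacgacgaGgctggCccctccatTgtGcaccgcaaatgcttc

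In this stretch *Actg2* and *Actc1* each differed from *Acta2* at 11 bases and *Acta1* at 7. Over 1110 coding bases the identity with *Acta2* was 84.3% for *Actg2*, 82.7% for *Actc1* and 85.7% for *Acta1*. Of the 1986 windows of 50 bases in the *Acta2* transcript, 7 were also found in another gene, the cytoplasmic actin *Actg1* and actin pseudogenes, and none of the 1284 windows of *Actg2* was. The assignment of reads between these genes was not tested. The library in which *Acta2* was highest, control 2, held the least *Actc1*, at 1758 CPM against 3830 to 6431 CPM in the other libraries.

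*Myh11* (chromosome 16, 14194535 to 14291372, minus strand) encodes the smooth muscle myosin heavy chain, the motor of the thick filament and the most specific marker of differentiated smooth muscle in this group. It measured 975, 2367 and 974 CPM in the controls and 325, 828 and 830 CPM in the mutants. Every mutant lay below every control, although mutants 2 and 3 differed from controls 1 and 3 by much less than control 2 did. The means were 1439 ± 804 and 661 ± 291 CPM (SD, n = 3), and the log2 fold change of -1.12 ± 0.49 (SE; 95% interval -2.29 to 0.04) was the lowest among the 10 genes (edgeR, unadjusted p = 0.057). Without control 2 and mutant 1 it was -0.23. The transcript shared 26 of its 6401 windows of 50 bases with the non-muscle myosins *Myh9* and *Myh10*.

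The 5 genes for actin-binding proteins all had lower means in the mutants, with log2 fold changes of -0.998 to -0.74, and in 3 of them every mutant lay below every control, beside the 4.83% of all genes tested.

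*Tagln* (chromosome 9, 45929619 to 45936058, minus strand) encodes transgelin, also called SM22α, which binds along actin filaments. It measured 1551, 2798 and 1406 CPM in the controls and 499, 1214 and 1374 CPM in the mutants. The groups were apart, but mutant 3 came within a few percent of control 3. This gave a log2 fold change of -0.90 ± 0.44 (SE; edgeR, unadjusted p = 0.082), and -0.19 without control 2 and mutant 1. The exons of *Tagln* overlap the annotated antisense gene *Gm48529* over 62.4% of their length and *Pcsk7* over 5.43%. Those of *Smtn* overlap *Gm11946* over 16.3%, and those of *Des* overlap *Gm15179* over 5.86%. These genes lie on the opposite strand, and the library kit did not mark strand, so reads from the overlaps cannot be told apart.

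*Cnn1* (chromosome 9, 22099216 to 22109630, plus strand) encodes calponin, an inhibitor of actomyosin ATPase. It measured 393, 852 and 369 CPM in the controls and 154, 346 and 378 CPM in the mutants, and mutant 3 exceeded control 3. Between the means the log2 fold change was -0.88 ± 0.44 (SE; edgeR, unadjusted p = 0.0869), and -0.074 without control 2 and mutant 1.

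*Lmod1* (chromosome 1, 135324807 to 135368065, plus strand) encodes leiomodin, which starts new actin filaments in smooth muscle. It measured 105, 251 and 121 CPM in the controls and 33.1, 93.0 and 113 CPM in the mutants. Mutant 3 lay between controls 1 and 3, and the range over the 6 libraries was the widest of the 10 genes, at 7.59-fold. This gave a log2 fold change of -0.998 ± 0.50 (SE; edgeR, unadjusted p = 0.0879), and -0.13 without control 2 and mutant 1.

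*Smtn* (chromosome 11, 3517523 to 3540612, minus strand) encodes smoothelin, an actin-binding protein of contractile smooth muscle. It measured 574, 1099 and 574 CPM in the controls and 283, 467 and 480 CPM in the mutants. All mutants lay below all controls. The means were 749 ± 303 and 410 ± 110 CPM (SD, n = 3), with a log2 fold change of -0.87 ± 0.33 (SE; 95% interval -1.65 to -0.09). The edgeR value (unadjusted p = 0.0341) lay over 0.05 when control 2 was left out (log2 fold change -0.48; edgeR, unadjusted p = 0.0908) and when any mutant was left out (edgeR, unadjusted p = 0.0975, 0.0534 and 0.0504 for mutants 1 to 3). It was also over 0.05 without control 2 and mutant 1 together (log2 fold change -0.28; edgeR, unadjusted p = 0.067) and with limma-voom (unadjusted p = 0.0633).

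*Synpo2* (chromosome 3, 123076519 to 123236149, minus strand) encodes synaptopodin 2, also called myopodin, which bundles actin at dense bodies. It measured 201, 322 and 207 CPM in the controls and 132, 149 and 156 CPM in the mutants. The mutants kept within a narrow band under the lowest control, with means of 243 ± 68.3 and 146 ± 12.2 CPM (SD, n = 3). The log2 fold change was -0.74 ± 0.20 (SE; 95% interval -1.21 to -0.26; edgeR, unadjusted p = 0.00796), and DESeq2 gave an adjusted p of 0.197. Its unadjusted p stayed under 0.05 in each of the 14 alternatives. Without control 2 and mutant 1 the log2 fold change was -0.42 (edgeR, unadjusted p = 0.00672), the lowest p among the 10 genes in that fit.

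**Figure D2:**
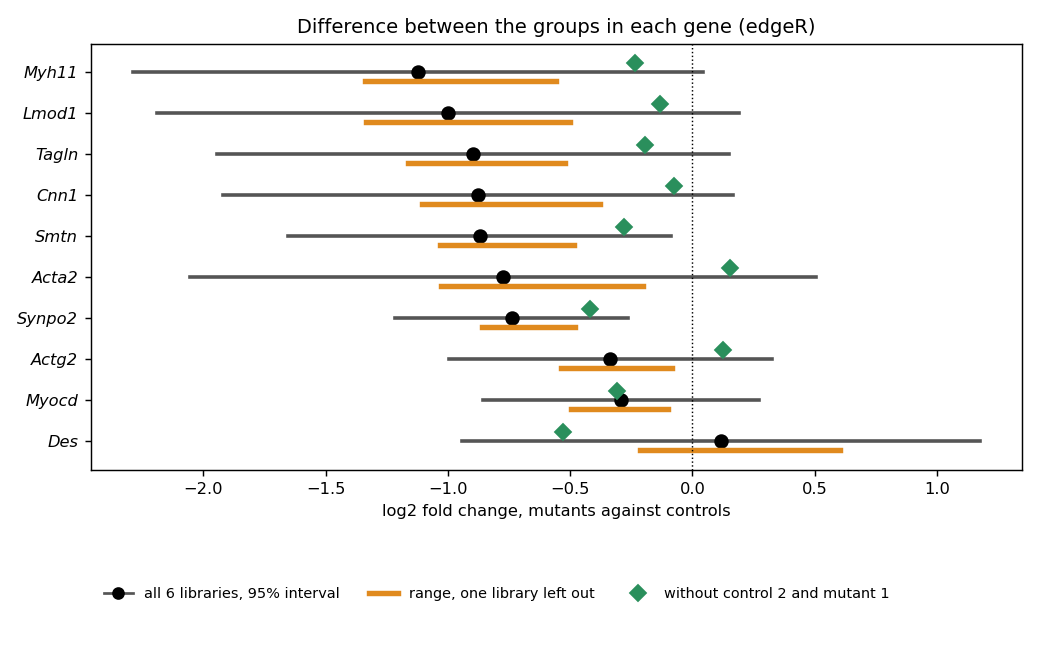
Log2 fold change of mutants against controls for each gene (x axis, edgeR), with the 95% interval over 6 libraries (black point and gray line), the range when a single library is left out (orange) and the value without control 2 and mutant 1 (green diamond). Only the intervals of *Smtn* and *Synpo2* lie wholly below 0, and without both libraries *Acta2* (0.15) and *Actg2* (0.12) lie above 0.

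For each of the 9 genes with a lower mutant mean, control 2 was the library whose removal brought the log2 fold change nearest to 0. It was then -0.20 for *Acta2*, -0.083 for *Actg2*, -0.56 for *Myh11*, -0.52 for *Tagln*, -0.38 for *Cnn1*, -0.50 for *Lmod1* and -0.48 for both *Smtn* and *Synpo2*.

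*Des* (chromosome 1, 75360329 to 75368579, plus strand) encodes desmin, the intermediate filament protein that links dense bodies in smooth muscle and is also a main filament of heart and skeletal muscle. It measured 1663, 510 and 994 CPM in the controls and 1590, 835 and 1008 CPM in the mutants. The groups overlapped throughout. Control 2, the highest library for *Acta2*, was the lowest for *Des*, and mutant 1, the lowest for *Acta2*, was second to control 1. The log2 fold change was 0.12 ± 0.45 (SE; 95% interval -0.94 to 1.18; edgeR, unadjusted p = 0.802), and the direction depended on single libraries, at -0.21 without control 2 and -0.20 without mutant 1. Of the 15 cardiac muscle markers, 12 were also lowest in control 2, beside 3818 of the 15354 genes tested. The mean log2 CPM of the 15 was 10.72, 9.15 and 10.80 in the controls and 11.01, 10.02 and 10.56 in the mutants. Their summed share of fragments was 1.44 to 4.49% in the controls and 2.27 to 4.80% in the mutants, with none of them at 0 in any library. Of the 15, 14 had higher and 1 had lower mean levels in the mutants, and none had an unadjusted p under 0.05. Their median log2 fold change of 0.23 turned to -0.36, with all 15 lower, when control 2 and mutant 1 were left out. Of the 8 skeletal muscle markers the fast myosins *Myh1*, *Myh2* and *Myh4* were at or near 0, and most of the summed level of the list, 69.1 to 1259 CPM in the controls and 88.4 to 481 CPM in the mutants, was *Acta1*, which was highest in control 1 at 1254 CPM. The part of cardiac muscle RNA in the values of *Des* was not tested.

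**Figure D3:**
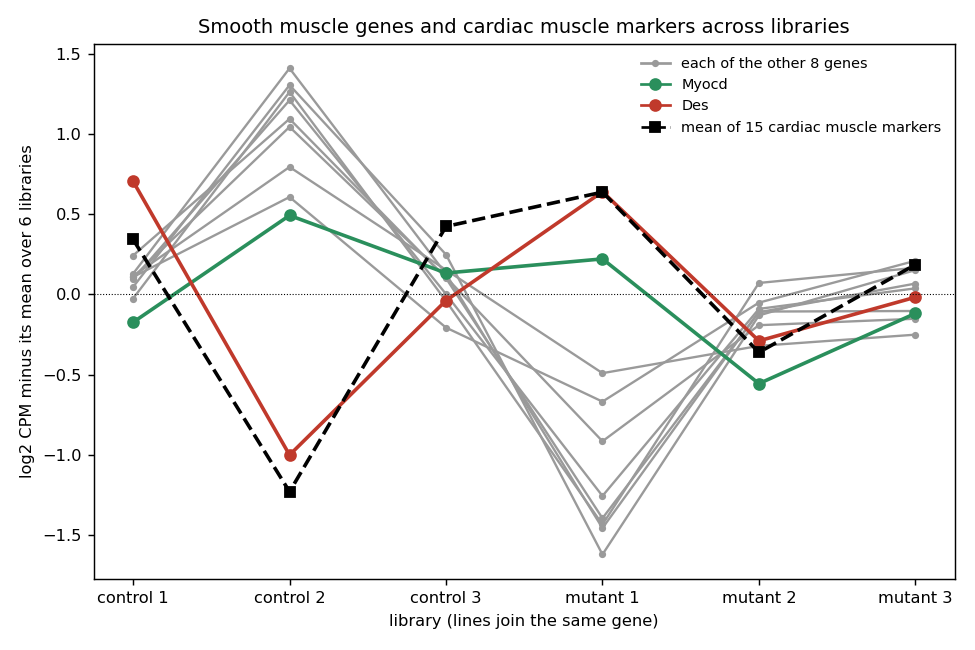
Log2 CPM minus the mean over the 6 libraries (y axis) in each library (x axis) for *Des* (red), *Myocd* (green), each of the other 8 genes (gray) and the mean of 15 cardiac muscle markers (black, dashed). The 8 gray lines all peak in control 2 and are lowest in mutant 1, whereas *Des* and the cardiac markers are lowest in control 2.

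*Myocd* (chromosome 11, 65176561 to 65269989, minus strand) encodes myocardin, the coactivator through which SRF drives smooth muscle genes, which is also made in cardiac muscle. It measured 33.6, 53.3 and 41.6 CPM in the controls and 44.2, 25.8 and 34.9 CPM in the mutants. Mutant 1, in which 8 of the genes were lowest, had the highest *Myocd* of the mutants, and mutant 2 the lowest of all. The log2 fold change was -0.29 ± 0.24 (SE; 95% interval -0.86 to 0.27; edgeR, unadjusted p = 0.262). It was -0.10 without control 2, -0.11 without mutant 2, -0.50 without mutant 1 and -0.31 without control 2 and mutant 1.

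The promoter table of RefSeq (GRCm38.p6) held 6 of the 10 genes, and 250 bases before to 50 after the start were searched on both strands for the CArG box, CC and GG around 6 A or T bases. No exact box was found in the 6, beside 1.63% of all 32851 promoters with one. With 1 departure from A or T allowed, a box was found in *Acta2* alone, beside 9.98% of all promoters. The 100 bases before the start listed for *Acta2* are shown because they hold both of its boxes, written in capitals (chr19:34255374-34255473, minus strand). The boxes begin 84 and 34 bases before this listed start, and whether transcription begins there was not tested.
Acta2 promoter: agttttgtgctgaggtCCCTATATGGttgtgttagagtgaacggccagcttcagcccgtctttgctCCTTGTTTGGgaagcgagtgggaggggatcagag

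The other promoters found in the table were those of *Des*, *Lmod1*, *Synpo2*, *Cnn1* and *Smtn*, and *Tagln*, *Myh11*, *Actg2* and *Myocd* were not matched.

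Across libraries, 8 of the 10 genes, all but *Des* and *Myocd*, were highest in control 2 and lowest in mutant 1, an order of extremes shared by 1348 genes, or 8.78% of those tested. The highest level exceeded the lowest 2.42-fold for *Actg2*, 2.44-fold for *Synpo2*, 3.88-fold for *Smtn*, 5.52-fold for *Cnn1*, 5.61-fold for *Tagln*, 6.47-fold for *Acta2*, 7.28-fold for *Myh11* and 7.59-fold for *Lmod1*. Together the 10 genes took 0.801, 1.44 and 0.717% of the fragments in the controls and 0.402, 0.664 and 0.725% in the mutants. In this sum mutants 2 and 3 thus lay close to controls 1 and 3, and the distance between the group means came mostly from control 2 and mutant 1. Without these 2 libraries the median log2 fold change of the 10 genes was -0.21, with 8 of 10 lower. Single genes ran from -0.53 for *Des* to 0.15 for *Acta2*. For the 8 genes that were highest in control 2 and lowest in mutant 1, leaving both out could only raise the log2 fold change. As a description of likeness, the root mean square distance of a gene's centered log2 CPM to the mean profile of the 10 was 0.116 for *Smtn*, 0.185 for *Actg2*, 0.188 for *Synpo2*, 0.238 to 0.390 for *Cnn1*, *Tagln*, *Acta2*, *Myh11* and *Lmod1*, 0.497 for *Myocd* and 0.987 for *Des*, beside a median of 0.517 over the genes compared. Each of the 10 is itself part of the mean profile, which lowers its distance, so the median is not an equal comparison.

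Levels of different genes can be set side by side only per length. The order below is of the control mean in CPM per kb, over the union of all annotated exons of GENCODE vM21. For *Synpo2* this union was 13089 bases, against 7063 in the transcript used for the windows of 50 bases. The order of neighbors can therefore depend on the length chosen. *Acta2* was the most abundant at 1669 ± 943 CPM per kb in the controls and 976 ± 477 in the mutants (SD, n = 3), followed by *Tagln* at 965 ± 385 and 518 ± 234. *Acta2* exceeded *Tagln* in all 6 libraries, although their ranges over the controls overlapped. *Des* followed at 281 ± 154 and 305 ± 105, then *Cnn1* at 197 ± 99.4 and 107 ± 44.2, *Myh11* at 189 ± 106 and 87.0 ± 38.3, and *Smtn* at 171 ± 69.2 and 93.6 ± 25.2 CPM per kb. The control ranges of these 4 neighbors overlapped in turn, and *Myh11* exceeded *Smtn* in only 2 of 6 libraries. *Lmod1* stood well under them at 40.3 CPM per kb in the controls and 20.2 in the mutants. *Actg2* (22.6 and 18.0), *Synpo2* (18.6 and 11.1) and *Myocd* (6.67 and 5.45 CPM per kb) were the least abundant, and *Myocd* lay under *Synpo2* in all 6 libraries with no overlap over the controls.

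The libraries differed much in most of these transcripts together, all but *Des* and *Myocd*. Each gene was therefore also set against *Acta2* within the same library. This comparison was chosen after the data were seen and does not depend on the scaling between libraries. *Myh11* gave 39.3, 39.1 and 39.6 fragments per 100 of *Acta2* in the controls and 34.7, 31.2 and 29.3 in the mutants. The 3 controls were nearly equal despite the large difference in level between control 2 and the others, and every mutant lay below them. The log2 ratio was lower by a mean of 0.31 in the mutants (difference -0.31, -0.38 to -0.26 with each library left out; exact two-sided permutation test, p = 0.1).

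*Lmod1* gave 4.23, 4.15 and 4.92 fragments per 100 of *Acta2* in the controls and 3.54, 3.50 and 3.99 in the mutants, again lower in every mutant (log2 difference -0.27, -0.33 to -0.19 with each library left out; exact permutation test, p = 0.1). *Tagln* gave 62.5, 46.2 and 57.2 in the controls and 53.3, 45.7 and 48.5 in the mutants, with overlap (log2 difference -0.16, -0.29 to -0.067 with each library left out; exact permutation test, p = 0.3). The log2 difference was -0.074 for *Cnn1* (-0.18 to -0.012 with each library left out) and -0.041 for *Smtn* (-0.31 to 0.11, the lowest without mutant 1), and *Smtn* was highest in mutant 1 at 30.2 fragments per 100 of *Acta2* against 16.9 to 23.4 in the other libraries. *Des* ranged from 8.42 fragments per 100 of *Acta2* in control 2 to 170 in mutant 1. *Synpo2* (5.32 to 14.1 fragments per 100 of *Acta2*), *Actg2* (0.767 to 2.05) and *Myocd* (0.881 to 4.72) were likewise lowest in control 2 and highest in mutant 1, and their groups overlapped.

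Of the 9 ratios to *Acta2*, 2 were thus lower in every mutant and none was higher in every mutant. Of the 15165 tested genes with a count in every library, these 9 included, 12, or 0.0791%, had a lower ratio to *Acta2* in every mutant. In 1005, or 6.63%, the ratio was higher in every mutant. These shares depend on the profile of *Acta2* itself, which was lowest in a mutant library. A gene with a flat level has its highest ratio in that library, so it cannot be lower in every mutant. The shares are therefore not an equal comparison for genes that vary together with *Acta2*. Among the 45 pairs that can be formed from the 10 genes, the groups did not overlap in 7, and 4 of the 7 involved *Actg2*, whose ratios to *Myh11*, *Tagln*, *Cnn1* and *Smtn* were higher in every mutant. The other 3 were *Acta2* with *Myh11*, *Acta2* with *Lmod1*, and *Myh11* with *Cnn1*. Over all pairs of tested genes with a count in every library the share without overlap was 8.7%, and the 45 pairs share genes and are not independent. The exact permutation test cannot go below p = 0.1 for any of them, and no other test of the ratios was run.

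**Figure D4:**
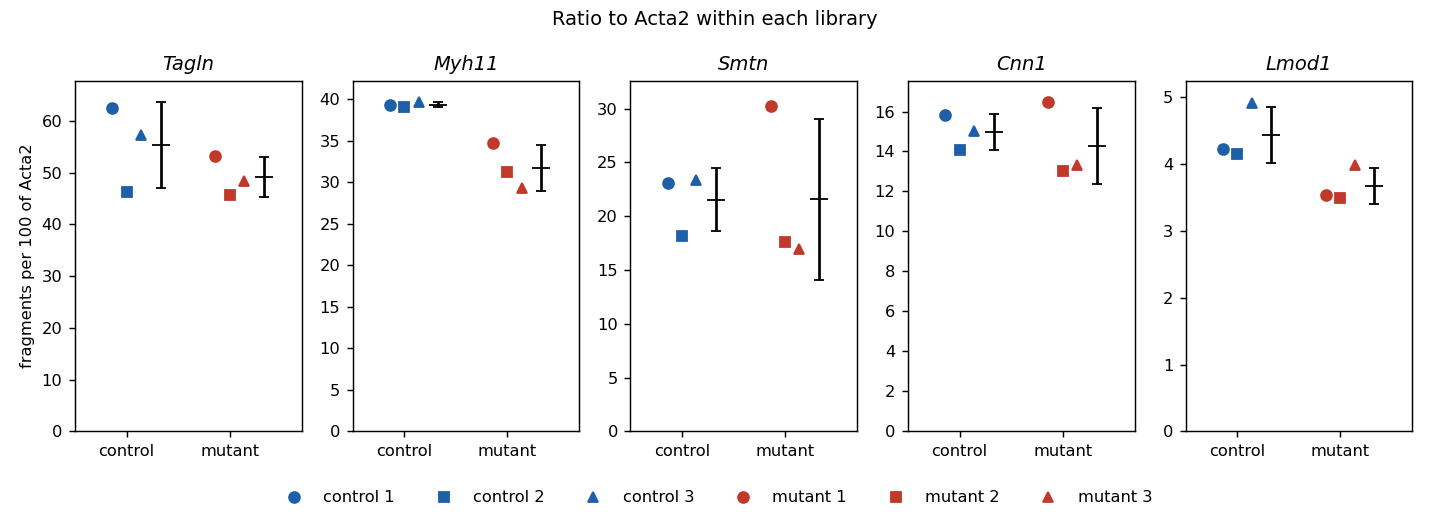
Fragments per 100 fragments of *Acta2* in the same library (y axis, from 0) for *Tagln*, *Myh11*, *Smtn*, *Cnn1* and *Lmod1*, in controls (blue) and mutants (red), with mean ± SD (n = 3). The *Myh11* ratio was 39.1 to 39.6 in the controls and 29.3 to 34.7 in the mutants, and *Lmod1* is likewise apart between the groups, while the other 3 overlap.

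A list of 54 other genes of the smooth muscle contractile machinery was examined beside the 10. Of the 54, all of which were tested, 43 were lower and 11 higher in the mutant mean, with a median log2 fold change of -0.31. An unadjusted edgeR p under 0.05 was reached by 5 genes, all lower, beside the 1.86% of all genes tested, and every mutant lay below every control in 6, beside 4.83%. As in the 10 genes, 36 of the 54 were highest in control 2 and lowest in mutant 1, and without these libraries the median was 0.038 with 23 of 54 lower. For these 36 the removal could only raise the log2 fold change. By role, 9 of 10 genes for myosin light chains, their kinase and phosphatase were lower, as were 3 of 4 for the thin filament, 14 of 18 for dense bodies and adhesion, 6 of 7 for calcium and potassium handling and 3 of 5 for contractile receptors.

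*Mrvi1* (also *Irag1*), whose product restrains calcium release under cGMP-dependent kinase, measured 116 ± 60.8 CPM in the controls and 55.1 ± 7.91 CPM in the mutants (SD, n = 3), a log2 fold change of -1.07 (edgeR, unadjusted p = 0.0169). *Ppp1r12b*, a targeting subunit of myosin phosphatase, measured 39.7 ± 5.46 and 29.1 ± 4.39 CPM, a log2 fold change of -0.45 (edgeR, unadjusted p = 0.0233) that was -0.47 without control 2 and mutant 1. *Mcam*, an adhesion molecule of vascular cells, measured 173 ± 76.5 and 97.6 ± 24.4 CPM, a log2 fold change of -0.83 (edgeR, unadjusted p = 0.0385). *Tns1*, a tensin that ties actin to focal adhesions, measured 951 ± 247 and 657 ± 44.2 CPM, a log2 fold change of -0.53 (edgeR, unadjusted p = 0.043). The gene that completed the 5 was *Tbxa2r*, the thromboxane receptor, with a log2 fold change of -0.65 (edgeR, unadjusted p = 0.0478), named after its value was seen. In these 5 genes every mutant lay below every control. Without control 2 the log2 fold change was -0.55 for *Mrvi1*, -0.40 for *Mcam* and -0.30 for *Tns1*. Without control 2 and mutant 1 it was -0.45 for *Mrvi1*, -0.23 for *Mcam*, -0.25 for *Tns1* and -0.17 for *Tbxa2r*.

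**Figure D5:**
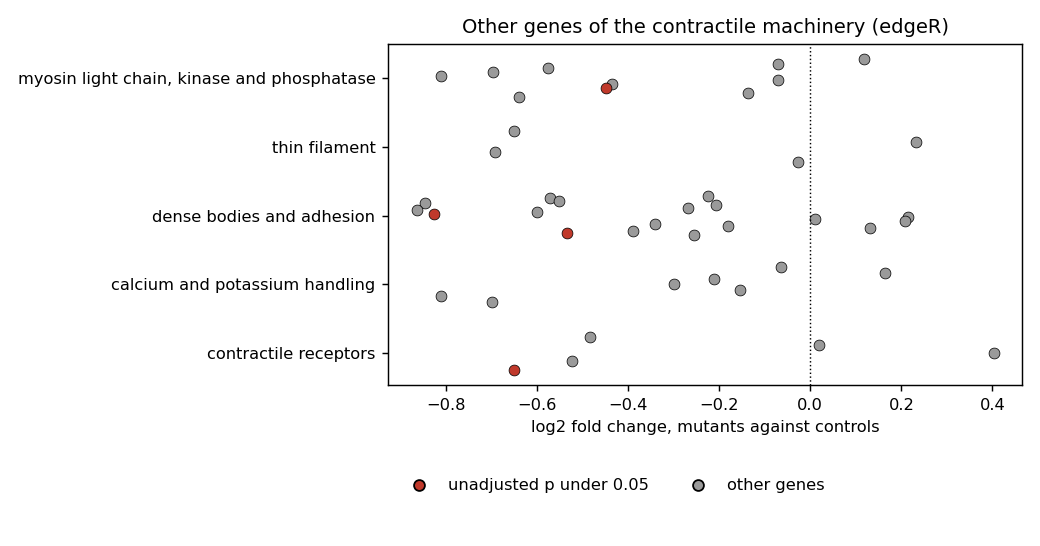
Log2 fold change of mutants against controls (x axis, edgeR) for 44 of the 54 other genes of the contractile machinery, by 5 roles (y axis; vertical scatter within a role has no meaning). Red points are the 4 of these genes with an unadjusted p under 0.05, all of them below 0, and 35 of the 44 points lie below 0.

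Among 20 regulators of the smooth muscle program, 12 were lower and 8 higher in the mutant mean, with a median log2 fold change of -0.055. Without control 2 and mutant 1 the median was 0.094 with 8 of 20 lower. In that fit 2 of the 20 had an unadjusted p under 0.05, both higher, beside 6.03% of all genes tested in it. They were *Klf4* (log2 fold change 0.56; edgeR, unadjusted p = 0.00769) and *Hey2* (log2 fold change 0.47; edgeR, unadjusted p = 0.0144). *Mef2c*, a MADS-box factor that acts in smooth muscle and other lineages, measured 87.4 ± 12.1 CPM in the controls and 70.2 ± 1.48 CPM in the mutants (SD, n = 3). With all 6 libraries it was the only one of the 20 with a p under 0.05 before adjustment (log2 fold change -0.32; edgeR, unadjusted p = 0.0303). At this threshold 1.86% of all genes were lower and 1.59% higher. The log2 fold change of *Mef2c* was -0.19 without control 2, and -0.21 without control 2 and mutant 1 (edgeR, unadjusted p = 0.0821). *Smad3*, which carries TGF-β signals, had a log2 fold change of -0.32 (edgeR, unadjusted p = 0.0808) and *Srf*, the partner of myocardin, one of 0.27 (edgeR, unadjusted p = 0.0808). Without mutant 3 the value for *Smad3* was -0.17, and without mutant 1 that for *Srf* was 0.16. The SRF group and its coactivators had 3 genes lower and 2 higher, the activating factors 6 and 3, and the repressors 3 and 3.

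Of the relatives of the 10 genes that other cells use in their place, 17 of 18 were tested, 9 lower and 8 higher, with a median log2 fold change of -0.13. The non-muscle myosin *Myh10* measured 191 ± 44.5 CPM in the controls and 130 ± 8.77 CPM in the mutants (SD, n = 3), a log2 fold change of -0.55 (edgeR, unadjusted p = 0.0151), and *Myh9* had a log2 fold change of -0.34 (edgeR, unadjusted p = 0.0635). Without control 2 these were -0.35 and -0.21. *Synpo*, the kidney and brain relative of *Synpo2*, measured 385 ± 33.8 and 276 ± 54.3 CPM, a log2 fold change of -0.48 (edgeR, unadjusted p = 0.0258). The cytoplasmic actins stood at a log2 fold change of -0.32 for *Actb* and -0.13 for *Actg1*, the calponins *Cnn2* and *Cnn3* at -0.25 and -0.24, the transgelin *Tagln2* at 0.052, and the intermediate filament gene *Vim* at 0.0079. None of these 6 had an unadjusted p under 0.05. Leaving out single libraries gave -0.49 to -0.070 for *Actb*, -0.22 to 0.014 for *Actg1* and -0.37 to -0.022 for *Cnn2*. It gave -0.36 to -0.056 for *Cnn3*, -0.049 to 0.13 for *Tagln2* and -0.14 to 0.17 for *Vim*. The striated muscle leiomodins *Lmod2* (0.45) and *Lmod3* (0.13) and the cardiac actin *Actc1* (0.24) had higher mutant means and the skeletal actin *Acta1* (-0.90) a lower one, and none of them had an unadjusted p under 0.05. Without control 2 and mutant 1 all 4 were lower, at -0.19, -0.54, -0.35 and -2.24, with an unadjusted edgeR p of 0.0284 for *Lmod3*. With each library left out the values ran from -1.71 to 1.51 for *Acta1*, -0.13 to 0.59 for *Actc1* and -0.23 to 0.53 for *Lmod3*, so that their directions depended on single libraries.

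Outside the 10, the 5 genes whose profile over the 6 libraries was nearest to the mean profile of the 10 were *Rasa4*, a Ras GTPase-activating protein (distance 0.0440), *Heyl*, a target of Notch signaling (0.0519), *Fbln5*, an elastic fiber protein (0.0661), *Myl6*, a myosin light chain that is also among the 54 contractile genes (0.0786), and *St5* (0.0948). *Heyl* measured 196, 307 and 188 CPM in the controls and 91.9, 148 and 167 CPM in the mutants, and *Fbln5* 542, 888 and 512 CPM and 313, 435 and 495 CPM. That control 2 was highest and mutant 1 lowest in these genes follows from how they were chosen. Of 8 markers of pericytes, which share contractile genes with smooth muscle, 3 were highest in control 2 and lowest in mutant 1, beside the 8.78% of all genes tested, and so was their summed share of fragments, at 0.0515, 0.0594 and 0.0462% in the controls and 0.0359, 0.0489 and 0.0466% in the mutants. Of these 8, 4 were lower and 4 higher in the mutant mean. All 6 macrophage markers were higher in the mutant mean, with a median log2 fold change of 0.29, and *Cd68* (edgeR, unadjusted p = 0.0109) and *C1qa* (edgeR, unadjusted p = 0.0161) had a p under 0.05 before adjustment, beside the 1.59% of all genes higher at this threshold. Their summed share was 0.0379 to 0.0425% in the controls and 0.0460 to 0.04996% in the mutants. The 4 adipocyte markers were all lower, with a median of -0.37, and without control 2 and mutant 1 only 1 of the 4 was. The part of these cell types in the values of the 10 genes was not tested.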

How the data were processed

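RNA was prepared from aortic valves with a TruSeq RNA kit, which does not mark strand, and sequenced from 3 control and 3 mutant libraries. Per the labels, which list builds and tools without their order, the authors used mm10, TopHat2 2.0.13, Bowtie2 2.2.1 and Cuffdiff 2.1.1 (the study's methods name another Bowtie2 version and no TopHat2); the deposited values are estimated counts of fragments per gene, with no normalization, 1.66 to 1.87% of which were not whole numbers. The counts were rounded and fitted with edgeR 4.0.16 (R 4.3.3; TMM, quasi-likelihood F test, two-sided, at least 10 counts in at least 3 libraries), and p-values were adjusted by Benjamini-Hochberg over all 15354 genes tested. DESeq2 1.42.0 and limma-voom 3.58.1 with sample weights were alternatives, as were other scalings and filters, a replicate block and leaving out each library. Totals of 32218345 to 55728852 fragments set the counting precision, a count of 0 allowing up to 0.0538 to 0.0931 CPM. Scripts were tested on simulated data. Replicates differed by more than counting noise, so no library appeared to be a copy of another, which does not show that they came from separate animals. All 10 genes and the lists were chosen with earlier results of these data known, as was the rule for naming further genes: the 4, 3 and 3 with the smallest p in the contractile, regulator and relative lists, and the 5 nearest to the mean profile among genes with a mean count of at least 100. Ratios to *Acta2* and the fit without control 2 and mutant 1 were added after the data were seen. Replicate numbers were taken from the labels, and libraries of the same number were not shown to pair. The correlations of their deviations were 0.289, 0.0822 and 0.0313, against -0.271 to 0.200 for libraries of different numbers. With 3 libraries per group these values cannot exclude pairing. The count for 1 role of the contractile list is not reported here.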

Additional observations from a re-analysis of the deposited data

How the results depend on the processing

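None of the 10 genes had an adjusted p under 0.05 in any of the 14 alternatives. Against 2 of 10 with an unadjusted p under 0.05, DESeq2 gave 6, limma-voom with sample quality weights 1, the replicate block 6 and the fit without control replicate 2 and mutant replicate 1 gave 1. With each library left out the number was 1 to 3. Under the replicate block the number of genes with such a p rose over the whole table too, from 529 to 814, and the replicate numbers were not shown to pair the libraries. For the 54 other contractile genes the number was 5, and 3 with library totals alone, 2 with limma-voom, 13 with the replicate block and 1 to 6 with each library left out. The median log2 fold change of -0.82 was -1.02 to -0.43 with each library left out and -0.21 without control 2 and mutant 1. With each library left out the log2 fold change was -1.03 to -0.20 for *Acta2*, -0.54 to -0.08 for *Actg2* and -0.21 to 0.61 for *Des*. Directions reversed for *Acta2* (0.15) and *Actg2* (0.12) without both libraries, 2 of the 126 values of the 9 genes other than *Des*. For *Des* the log2 fold change turned to -0.067 with limma-voom, -0.21 without control 2, -0.20 without mutant 1 and -0.53 without both. The cause was not tested. In limma-voom control 2 and mutant 1 had the lowest weights, 0.453 and 0.740, but these are estimated from the same values and do not show why the libraries deviate. The biological coefficient of variation was 0.278, and the part of depth in the calls was not tested.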
